A study of Homo sapiens with 6 samples.

Results

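The genes described here are the replication-dependent histone genes of H1155 cells, a human large cell lung cancer line with neuroendocrine features that grows in suspension. They were chosen by name and annotation alone, as the protein-coding genes whose symbol starts with HIST1H, HIST2H, HIST3H or HIST4H, which gave 71 of the 58735 genes in the count table. By histone type they are 6 linker histone H1 genes, 17 H2A genes, 18 H2B genes, 15 H3 genes and 15 H4 genes. By position, 55 lie in the HIST1 cluster on chromosome 6, 34 in its first stretch and 21 in its second, while 12 lie in HIST2 and 3 in HIST3, both on chromosome 1, and 1, HIST4H4, lies on chromosome 12.

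The RNA-Seq compared 3 libraries of unedited H1155 cells, labelled WT, with 3 libraries labelled GFI1-KO. All 6 came from untreated cells. For the knockout, plasmids carrying Cas9, GFP and guides against the GFI1 promoter region were transfected, and single GFP-positive clones were sorted; the labels do not say how many clones the 3 GFI1-KO libraries represent. Nothing in the labels says that libraries of a group came from separate cultures, so the p-values measure the spread between these libraries, which may be technical.

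Replication-dependent histone genes supply the histone proteins that package newly copied DNA, and cells transcribe them mainly in S phase. Their transcripts are unlike other mRNAs: most have no introns and no poly(A) tail, and end in a conserved stem-loop that is bound by SLBP, the stem-loop binding protein, and is recognised with the U7 small nuclear ribonucleoprotein when the 3' end is cut. Some of these genes also make transcripts that are polyadenylated further downstream. RNA for these libraries was selected with poly-T beads, so a count here is a count of fragments that passed that selection and is not a measure of all histone mRNA. Whether a different count stands for more transcripts, more tailed transcripts or a different carry-over of untailed RNA cannot be told apart in these data, nor can fewer expressing cells be told apart from less RNA per cell in a bulk sample.

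The stem-loop is what makes the transcripts special, so its sequence is shown first, for the genes whose counts carry the results below. A search of the 200 bases after each stop codon on the coding strand, for GG, any 2 bases, CTTT, any 2 bases, AG, any 2 bases and CC, found the element in 68 of the 71 genes (95.8%) and in 6 of 19853 other protein-coding genes (0.0302%), of which 1 is the histone variant gene H2AX (H2AFX in the count table). It was not matched in HIST1H3E, HIST1H4L or HIST1H2BI, which says only that these letters are not in that window. The sequences are the reference sequence of GRCh38 on the strand of the gene, 5' to 3', with the 16 bases of the stem-loop in capitals and 5 flanking bases on each side.
HIST1H1C, chr6:26055739-26055764, minus strand: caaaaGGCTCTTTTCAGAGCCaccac
HIST1H2AC, chr6:26124664-26124689, plus strand: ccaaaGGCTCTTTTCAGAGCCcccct
HIST2H2BE, chr1:149886183-149886208, minus strand: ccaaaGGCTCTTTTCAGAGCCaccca
HIST1H2BK, chr6:27146361-27146386, minus strand: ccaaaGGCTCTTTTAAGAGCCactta
HIST1H2BJ, chr6:27132316-27132341, minus strand: ctaacGGCTCTTTTAAGAGCCaccca
HIST2H2AC, chr1:149887386-149887411, plus strand: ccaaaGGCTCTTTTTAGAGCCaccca
HIST1H4I, chr6:27139649-27139674, plus strand: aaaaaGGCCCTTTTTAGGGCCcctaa
HIST4H4, chr12:14770719-14770744, minus strand: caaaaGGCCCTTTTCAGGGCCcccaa

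The form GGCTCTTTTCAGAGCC was the most frequent, with 41 genes. The H4 genes had forms with a different stem, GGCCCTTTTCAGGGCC in 10 and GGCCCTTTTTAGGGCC in 4, and a further 10 genes had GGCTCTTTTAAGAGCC. HIST2H2AC, HIST1H2AG and HIST1H2AK each had a form of their own. The deposited gene interval contained the printed window in 32 of the 68 genes. In the other 36, among them HIST1H1C, HIST1H2BK and HIST2H2AC, the interval ended before the window or inside it.

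The libraries labelled WT held 14882914 to 16102215 counts and those labelled GFI1-KO held 17503794 to 17692882, so that 3 counts in 1 library correspond to 0.170 to 0.202 CPM (counts scaled to a library total of 1000000). GFI1 itself, a zinc finger transcriptional repressor, had 153, 106 and 125 counts in the WT libraries and 174, 188 and 170 in the libraries labelled GFI1-KO (log2 fold change 0.31 ± 0.12 SE, adjusted p = 0.0273, n = 3 per group). This call was lost without WT library 2, WT library 3 or GFI1-KO library 2 (adjusted p = 0.147, 0.0633 and 0.0927) and with DESeq2 (adjusted p = 0.0720), and after offsets for GC content and length the log2 fold change was -0.02 (adjusted p = 0.919). The targeted gene was therefore not lower in the libraries labelled as its knockout. Counts per gene do not show the edited promoter region itself, and every direction given here rests on the labels. As a check of the neuroendocrine label, all 12 listed neuroendocrine markers were tested. Of these, 7 rose and 5 fell (4 and 7 after the GC correction described below), where 36.5% of all tested genes rose and 35.9% fell. SYP, synaptophysin, had 3770 to 4182 counts in WT and 10106 to 10562 in GFI1-KO, and INSM1, a neuroendocrine transcription factor, had 6408 to 6780 and 6636 to 7133. DDC, the decarboxylase of dopamine and serotonin synthesis, had 205, 228 and 236 against 12, 35 and 31 (log2 fold change -3.26). It was not the lowest marker, since the log2 fold changes of the 12 ranged from -10.54 to 1.21.

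The histone genes took few counts, and the libraries labelled GFI1-KO had more of them. The 71 genes together took 931, 804 and 895 counts in the WT libraries and 4275, 4439 and 4521 in the libraries labelled GFI1-KO. In WT this was 0.00578% of all counts in the first library (Wilson 95% interval 0.00542 to 0.00617%), 0.00540% in the second (0.00504 to 0.00579%) and 0.00570% in the third (0.00534 to 0.00609%). In GFI1-KO it was 0.0244% (0.0237 to 0.0252%), 0.0252% (0.0245 to 0.0260%) and 0.0256% (0.0248 to 0.0263%). These intervals cover counting error only. The groups were far apart and each was narrow: 56.3 ± 2.00 CPM in WT (SD, n = 3) against 251 ± 5.84 in GFI1-KO (SD, n = 3), a ratio of 4.45.

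All 5 histone types had a higher sum in each library labelled GFI1-KO than in any WT library, by different ratios. The H1 sum was 5.26 ± 0.516 CPM in WT and 53.3 ± 1.56 in GFI1-KO, a ratio of 10.1. The H2B sum was 18 ± 1.1 and 107 ± 3.55, a ratio of 5.92. The H2A sum was 15.2 ± 0.545 and 51.3 ± 3.32, a ratio of 3.36. H4 and H3 had the smallest ratios, 2.26 for H4 (12.3 ± 0.399 to 27.7 ± 2.88) and 2.14 for H3 (5.49 ± 0.449 to 11.8 ± 0.621; all SD, n = 3). As shares of the histone counts, H1 went from 9.34% to 21.3% and H2B from 32% to 42.6%, while H4 went from 21.8% to 11.1% and H3 from 9.76% to 4.70%. Single genes weighed heavily in the H1 and H2B sums. HIST1H1C alone held 8.86% of the histone counts in WT and 20.5% in GFI1-KO, nearly all of the H1 share. Within H2B, HIST1H2BK held 15.7% and 26%. Nucleosomes hold the 4 core types in equal number, but the counts per type in these libraries were far from equal in both groups.

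**Figure D1:**
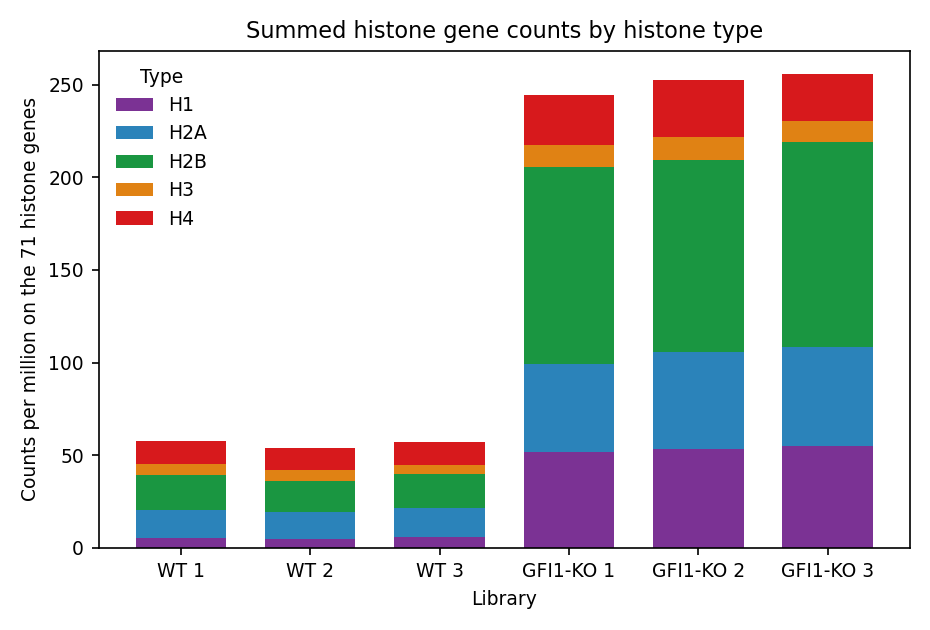
CPM on the 71 replication-dependent histone genes (y axis, from 0) in each of the 6 libraries (x axis), with 1 bar per library stacked by histone type. The WT bars reach 54.0 to 57.8 and the GFI1-KO bars 244 to 255.5, and the H1 and H2B segments take a larger share of the GFI1-KO bars.

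Most of the histone genes were at or near the floor. Of the 71, 24 had no count in any library, which allows up to 3 counts in each, and 49 in all were not tested because they failed the filter on low counts. None of these 49 exceeded 17 counts in any library. Their sums were higher in GFI1-KO for 19 genes, lower for 5, equal for 1 and 0 in both groups for 24, and together they went from 2.32 ± 0.314 to 3.98 ± 0.607 CPM (SD, n = 3), a ratio of 1.72. HIST1H4C, for example, had 14 counts in all WT libraries and 30 in all GFI1-KO libraries, and HIST1H3B had 6 and 27. The remaining 22 genes were tested. Of these, 14 passed the filter in all 6 libraries, and 8 passed through the libraries labelled GFI1-KO alone, which favours genes that were higher there.

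Among the 22 tested genes, 19 rose (edgeR quasi-likelihood test with Benjamini-Hochberg adjustment over all genes, threshold 0.05), in a comparison where 36.5% of the 17514 tested genes rose and 35.9% fell. None of the 22 fell, and none had a log2 fold change below 0. At an unadjusted p under 0.05 the number lower was also 0, and DESeq2 and limma-voom each called 0 lower. A rise of at least 1 on the log2 scale was called for 18 of the 22, against 10.2% of all tested genes. The 3 libraries labelled GFI1-KO all lay above the 3 WT libraries for 20 of the 22, against 37.5% of all tested genes. The median log2 fold change was 2.09 over the 22 histone genes (range 0.15 to 3.38) and 0.00050 over all tested genes. With at least 10 counts required in every library, 11 of 13 genes rose, against 37.7% of the genes tested that way, and their median was 1.49. The counts over the 22 include the 8 genes that passed the filter through the GFI1-KO libraries alone and are a description. Of the 14 genes that passed it in all 6 libraries, 11 rose, the groups did not overlap in 12, and the median log2 fold change was 1.43.

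**Figure D2:**
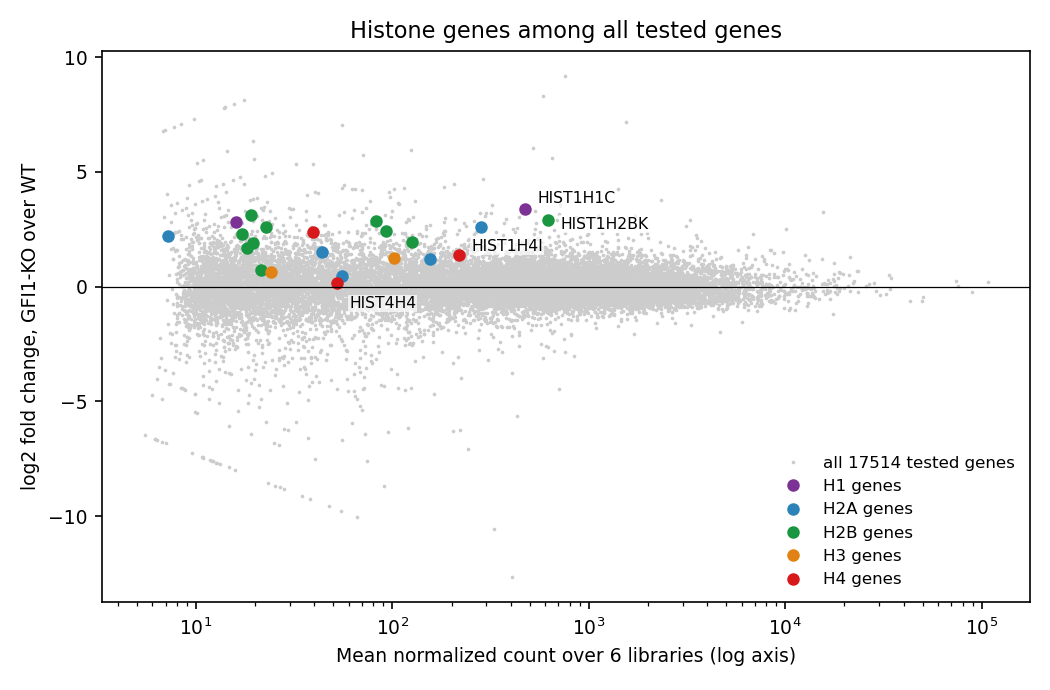
Log2 fold change of GFI1-KO over WT (y axis) against the mean normalized count over the 6 libraries (x axis, log axis) for all 17514 tested genes in grey and the 22 tested histone genes coloured by type. The histone points lie between 0.15 and 3.38, all above 0, and HIST1H1C and HIST1H2BK lie above most genes at their level.

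H1 linker histones bind the DNA that enters and leaves the nucleosome and help to compact chromatin. HIST1H1C, which encodes H1.2 (ENSG00000187837, chr6:26055787-26056428, minus strand), had 77, 69 and 87 counts in WT and 879, 899 and 941 in GFI1-KO. The groups did not come near each other, and the log2 fold change of 3.38 ± 0.087 (SE, adjusted p = 1.1e-21) was the highest of the 22. HIST1H1E, which encodes H1.4, was sparse, with 7, 1 and 3 counts in WT and 25, 36 and 28 in GFI1-KO (log2 fold change 2.82 ± 0.45 SE, adjusted p = 3.1e-06). It passed the filter through the GFI1-KO libraries alone. The other 4 H1 genes were not tested, and 2 of them had no count.

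H2B had the most tested genes, 10 of 18, of which 9 rose, where 36.5% of all tested genes rose. Of the 5 H2B genes that passed the filter in all 6 libraries, 4 rose. HIST1H2BK (chr6:27146418-27146798, minus strand) had the highest level of all the histone genes, with 157, 119 and 138 counts in WT and 1109, 1137 and 1197 in GFI1-KO (2.89 ± 0.075 SE on the log2 scale, adjusted p = 1.4e-21). The deposited model for it is 381 bases, its coding sequence alone, and on the per-length scale its level went from 23.2 to 171 FPKM. Of the 50-base words in its exons, 57.2% also occur elsewhere in the genome, so its counts depend on how fragments that match several places were assigned, which the sources used here do not give. HIST1H2BJ had 26, 10 and 20 counts against 152, 159 and 150 (2.88 ± 0.21 SE, adjusted p = 2.4e-12). HIST2H2BE, in the cluster on chromosome 1, had 27, 31 and 25 against 167, 161 and 165 (2.40 ± 0.17 SE, adjusted p = 1.3e-12). In both, all GFI1-KO libraries lay more than 100 counts above the highest WT library.

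HIST1H2BD had 46, 47 and 54 counts in WT and 206, 195 and 234 in GFI1-KO (log2 fold change 1.95 ± 0.14 SE, adjusted p = 2.6e-12). The other 5 H2B genes that rose, HIST2H2BF, HIST1H2BC, HIST1H2BE, HIST3H2BB and HIST1H2BO, had at most 13 counts in any WT library and 20 to 55 in each GFI1-KO library, with log2 fold changes of 1.70 to 3.11. These 5 passed the filter through the GFI1-KO libraries alone, which favours genes that were higher there. HIST2H2BF shares 62.9% of its words with other loci and overlaps FCGR1A on the opposite strand, so its counts are uncertain. HIST1H2BN, whose interval overlaps HIST1H2AK and HIST1H2AL, had 15, 9 and 22 against 31, 22 and 32 counts, and its log2 fold change of 0.72 ± 0.33 (SE) did not pass (adjusted p = 0.0540), although it did with limma-voom (0.76, adjusted p = 0.0460), without WT library 3 (1.06, adjusted p = 0.0140) or without GFI1-KO library 2 (0.88, adjusted p = 0.0374).

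Of the 5 tested H2A genes, 4 rose, where 36.5% of all tested genes rose. Of the 4 that passed the filter in all 6 libraries, 3 rose. HIST1H2AC (chr6:26124145-26139116, plus strand) had 77, 73 and 74 counts in WT and 481, 536 and 521 in GFI1-KO (log2 fold change 2.62 ± 0.099 SE, adjusted p = 3.5e-18). HIST3H2A started from a like count but moved less, from 92, 83 and 91 to 223, 229 and 232 (1.2 ± 0.12 SE, adjusted p = 6.2e-10). HIST1H2AG had 18, 21 and 26 against 44, 80 and 82 (1.5 ± 0.26 SE, adjusted p = 1.5e-05), with the first GFI1-KO library well below the other two. HIST1H2AI, at 1 to 3 counts in WT and 11 to 14 in GFI1-KO, shares 63.5% of its words with other loci. It passed the filter through the GFI1-KO libraries alone, which favours genes that were higher there. HIST2H2AC did not pass: it had 47, 37 and 48 counts in WT and 57, 57 and 89 in GFI1-KO (0.46 ± 0.21 SE, adjusted p = 0.0565), and the third GFI1-KO library alone stood clearly apart. Without GFI1-KO library 1 or 2 its adjusted p was 0.0365 or 0.0360.

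H3 and H4 form the tetramer at the core of the nucleosome, and few of their genes had enough counts to test. HIST1H3E rose, from 66, 53 and 52 counts to 156, 156 and 144 (log2 fold change 1.25 ± 0.15 SE, adjusted p = 2.7e-08). HIST1H3H had 19, 18 and 16 against 32, 33 and 28 counts (0.65 ± 0.29 SE, adjusted p = 0.0464); the groups did not overlap, but with DESeq2 the adjusted p was 0.117 and leaving out any 1 library gave 0.0521 to 0.126, so this call is not firm. HIST1H4H rose from 17, 11 and 8 to 55, 78 and 76 (2.37 ± 0.28 SE, adjusted p = 3.1e-08), and passed the filter through the GFI1-KO libraries alone. HIST1H4I had the highest WT count after HIST1H2BK, 118, 113 and 115, and reached 336, 353 and 303 (1.36 ± 0.10 SE, adjusted p = 5.3e-12). HIST4H4 had interleaved groups, at 54, 40 and 46 against 57, 69 and 47 (0.15 ± 0.21 SE, adjusted p = 0.543).

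**Figure D3:**
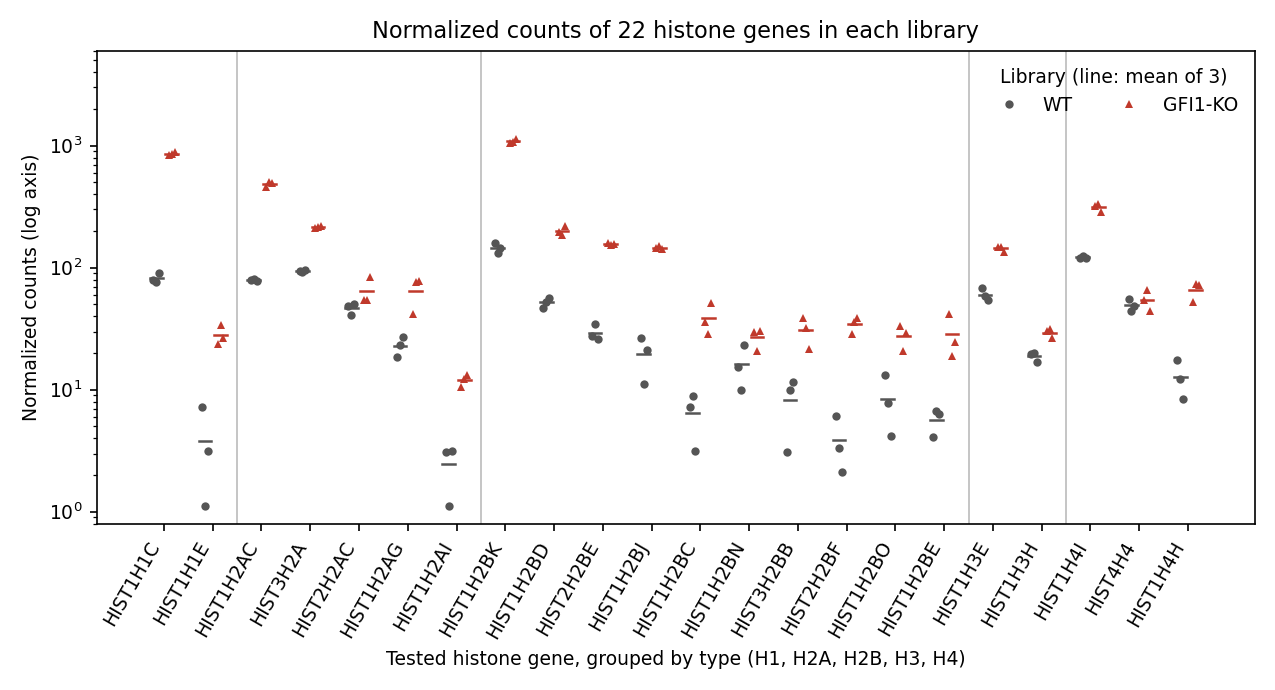
Normalized counts (y axis, log axis) of the 22 tested histone genes (x axis, grouped by type) in the 3 WT libraries (circles) and the 3 GFI1-KO libraries (triangles), with short lines for the mean of each group. The triangles lie above the circles without overlap in 20 genes, and overlap them in HIST1H2BN and HIST4H4.

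On the per-length scale, HIST1H2BK led in GFI1-KO at 171 ± 5.78 FPKM (SD, n = 3), followed by HIST1H1C at 80.2 ± 2.37. HIST1H2AC at 17.5 ± 0.915, HIST1H4I at 14.5 ± 1.17, HIST3H2A at 14.5 ± 0.217 and HIST1H2BD at 13.8 ± 1.25 came next, and of these HIST1H4I, HIST3H2A and HIST1H2BD lay within about 1 SD of each other. A length of the coding sequence alone, as for HIST1H2BK and HIST1H1C, gives a higher value for the same counts than a model with long untranslated ends, so this order depends on the deposited models. Counts were concentrated in few genes: HIST1H2BK held 15.7% of the histone counts in WT and 26% in GFI1-KO, and HIST1H1C 8.86% and 20.5%. The 5 genes with most counts held 56.4% and 70.8%. Without HIST1H1C and HIST1H2BK, an alternative chosen after the data were seen, the ratio of the sums was 3.16.

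By position, 8 of 8 tested genes of the first HIST1 stretch rose (median log2 fold change 2.48) and 7 of 8 in the second (1.60). In HIST2, 2 of 3 tested genes rose (2.40), in HIST3 both (1.56), and in HIST4 the single gene did not pass. Of the genes that passed the filter in all 6 libraries, 4 of 4 rose in the first stretch (2.28), 5 of 6 in the second (1.43), 1 of 2 in HIST2 and 1 of 1 in HIST3. HIST1H2BC, HIST1H1E, HIST1H2BE and HIST1H4H of the first stretch passed through the GFI1-KO libraries alone. The difference between clusters was not tested. The 20 other protein-coding genes between the outermost HIST1 genes included butyrophilin, zinc finger and transporter genes. Of 13 tested, 7 rose and 4 fell, with a median of 0.29 (range -0.81 to 1.87), and the offsets for GC content and length gave 9 that rose and 2 that fell, their median being 0.36. Of all tested genes, 36.5% rose and 35.9% fell. The upper end of that range was TRIM38, a ubiquitin ligase of antiviral signalling, at 49, 63 and 53 counts in WT and 210, 242 and 222 in GFI1-KO. BTN2A1, BTN3A2 and BTN3A1, which lie between the 2 stretches, rose by 0.62, 0.37 and 0.39 on the log2 scale, and HMGN4 fell by 0.26.

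Many H2A and H2B genes stand head to head and share 1 promoter region. By their intervals, 12 head-to-head pairs, 1 of them an H3 and H2B pair, had starts at most 1000 bases apart. The H3 gene, HIST1H3J, overlaps HIST1H2AM on the same strand, and both were paired with HIST1H2BO. A start here is that of the deposited gene interval. For models of the coding sequence alone, as for HIST2H2AC, HIST1H2BK and HIST1H2AH, it is the start of the coding sequence. In some pairs both genes had like changes. HIST1H2BC and HIST1H2AC, with 219 bases between their starts, had log2 fold changes of 2.59 and 2.62, although their counts differed more than 10-fold: 18 and 224 over the 3 WT libraries, 123 and 1538 over the 3 GFI1-KO libraries. In other pairs the genes differed. HIST2H2BE rose from 83 to 493 counts over 3 libraries (2.40), while HIST2H2AC, whose start is 323 bases away, went from 132 to 203 (0.46, no call). HIST1H2BK rose from 414 to 3443 counts and its partner HIST1H2AH, at 331 bases, went from 12 to 22, too few to test. HIST1H2BJ and HIST1H2AG had values of 2.88 and 1.5, and HIST3H2A and HIST3H2BB 1.2 and 1.91. The difference within a pair was not tested.

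The region between the 2 genes is shown for the pair with like changes and for a pair with unlike changes. The sequences are the 250 bases before the RefSeq start of the H2B gene, 5' to 3' on its strand, on GRCh38.p14. Each runs slightly past the RefSeq start of the H2A partner. Capitals mark, on either strand, the octamer ATTTGCAT, TATAAA and CCAAT, which are classical elements of histone promoters.
HIST1H2BC, toward HIST1H2AC, chr6:26123927-26124176, minus strand: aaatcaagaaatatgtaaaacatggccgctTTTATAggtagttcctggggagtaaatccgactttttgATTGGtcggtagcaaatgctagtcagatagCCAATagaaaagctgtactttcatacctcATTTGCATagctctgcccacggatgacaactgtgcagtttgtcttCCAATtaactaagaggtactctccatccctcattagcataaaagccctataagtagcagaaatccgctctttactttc
HIST2H2BE, toward HIST2H2AC, chr1:149886683-149886932, minus strand: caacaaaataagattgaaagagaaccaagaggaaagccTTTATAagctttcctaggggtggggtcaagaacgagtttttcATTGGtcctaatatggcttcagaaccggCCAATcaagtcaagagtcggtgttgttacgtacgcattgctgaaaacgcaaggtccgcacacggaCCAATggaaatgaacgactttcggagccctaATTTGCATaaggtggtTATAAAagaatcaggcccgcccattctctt

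Both regions hold 1 octamer and 3 CCAAT boxes, while TATAAA, on either strand, is marked at 1 place in the HIST1H2BC region and 2 in the HIST2H2BE region. Over the 66 histone genes with a RefSeq promoter (250 bases before to 50 after the start), the octamer was present in 37.9%, against 1.8% of 27305 RefSeq promoters, and was found in 11 of 16 H2A and 14 of 18 H2B promoters and in no H1, H3 or H4 promoter. The windows of head-to-head pairs overlap. TATAAA was present in 66.7% against 12%, and CCAAT in 84.8% against 35.7%, in all of the H1, H2A, H2B and H3 promoters and in 3 of 13 H4 promoters. Of the genes with an octamer, 9 of 10 tested rose, with a median log2 fold change of 2.50. Of those without, 10 of 12 rose, with a median of 1.64, and 36.5% of all tested genes rose. Both counts include genes that passed the filter through the GFI1-KO libraries alone. These were HIST2H2BF, HIST1H2BC, HIST1H2BE and HIST1H2BO with an octamer, and HIST3H2BB, HIST1H1E, HIST1H4H and HIST1H2AI without. The difference was not tested. These matches describe the sequence and are not evidence of a bound factor.

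A list of 7 histone genes known to make polyadenylated forms, HIST1H1C, HIST1H2AC, HIST1H2BC, HIST1H2BD, HIST1H2BK, HIST2H2BE and HIST4H4, held 47.9% of the histone counts in WT and 68.9% in GFI1-KO. Its sum went from 27 ± 0.847 to 173 ± 5.44 CPM (SD, n = 3), a ratio of 6.41, and 6 of its 7 genes rose (median 2.59 on the log2 scale). Of the other histone genes 13 of 15 tested rose, with a median of 1.70, where 36.5% of all tested genes rose. In the list of 7, HIST1H2BC passed the filter through the GFI1-KO libraries alone, which favours genes that were higher there. Among the others, HIST2H2BF, HIST3H2BB, HIST1H1E, HIST1H2BE, HIST1H4H, HIST1H2AI and HIST1H2BO did so. By stem-loop form, all 4 tested genes with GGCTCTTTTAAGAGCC rose (median 2.73), as did 11 of 12 with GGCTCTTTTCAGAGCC (2.27). Genes whose deposited interval spans the stem-loop window had a median of 2.09 (14 of 16 rose), and those whose interval does not had 2.82 (4 of 5 rose). The counts by stem-loop form and by interval also include genes that passed the filter through the GFI1-KO libraries alone, and are a description. None of these differences between lists was tested.

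Other RNAs without a poly(A) tail were counted beside the histone genes. Of 27 listed RNAs of that kind (small nuclear, Cajal body, vault and signal recognition particle RNAs and others), 13 had no count in any library and 13 had at most 14. The remaining one, RN7SL2, an RNA of the signal recognition particle, had 22, 10 and 28 counts in WT and 3245, 3607 and 2854 in GFI1-KO (log2 fold change 7.17 ± 0.13 SE, adjusted p = 5.9e-25). RN7SL2 has near-identical copies in the genome, so its counts are uncertain. The list without it summed to 1.06 to 1.68 CPM in WT and 1.24 to 1.49 in GFI1-KO, so the groups overlapped. The part of poly(A) selection in the histone counts was not tested.

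Of the 20 listed factors that make and process histone mRNA, 9 rose and 6 fell, with a median log2 fold change of 0.07, where 36.5% of all tested genes rose and 35.9% fell. With the GC content and length offsets, 8 rose and 7 fell. SLBP, which binds the stem-loops printed above, had 2252, 2011 and 2114 counts in WT and 1129, 1188 and 1106 in GFI1-KO (-1.06 ± 0.043 SE, adjusted p = 1.5e-17; -1.11 after the offsets), the lowest fold change on the list, with no overlap between groups. NPAT, the coactivator that cyclin E and CDK2 act on to switch on histone transcription, had 1450, 1300 and 1389 counts against 867, 841 and 909 (-0.82 ± 0.048 SE, and -0.21 after the offsets). CASP8AP2 (FLASH), which with LSM11 of the U7 particle recruits the cleavage factors, had a log2 fold change of -0.78, and LSM11 had -0.48. After the offsets these were -0.15 and -0.17.

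The shared cleavage factors CPSF3, the nuclease, and CPSF2 fell by 0.64 and 0.55 on the log2 scale, and were at -0.40 and 0.01 after the offsets. Factors that rose included LSM1, which takes part in histone mRNA decay (0.70), CDK2 (0.44), LSM10 of the U7 particle (0.40) and UPF1, a helicase of the decay pathway (0.31), of which LSM10 and UPF1 were at -0.22 and -0.15 after the offsets. ZNF473, a further U7-associated protein, ERI1, the exonuclease that trims histone 3' ends, and CCNE1 and CCNE2, the E cyclins, had no call. SLBP, NPAT and LSM11 were named after their values were seen.

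The replication-independent histone variants are made largely from polyadenylated mRNA and outside S phase as well, with H2AFX, which also carries the stem-loop, as an exception. They had much higher counts. Their sum was 2847 to 2940 CPM in WT and 2852 to 2888 in GFI1-KO. Of 10 tested, 3 rose and 3 fell, with a median of -0.07, where 36.5% of all tested genes rose and 35.9% fell. The GC correction described below left 3 that rose and 7 that fell, their median being -0.17. H1F0, the linker histone H1.0 of slowly dividing and differentiated cells, went from 1452, 1357 and 1213 to 3906, 4014 and 3930 counts (1.40 ± 0.046 SE, adjusted p = 1.9e-19). H1FX and H2AFX rose by 0.69 and 0.51 on the log2 scale, but were at -0.21 and -0.35 after that correction. H2AFZ, which encodes H2A.Z, fell by 0.52, H2AFV by 0.30 and H3F3A by 0.08. H3F3B and H2AFY, the other variants with high counts, did not pass, at -0.05 and -0.02. H3F3A was 0.09 after the GC correction.

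Histone chaperones, S-phase genes and mitosis genes were counted as the processes in which new histones are used. Among all tested genes 36.5% rose and 35.9% fell. Of 20 chaperone genes 7 rose and 9 fell (median -0.02), and with the GC content and length offsets 7 rose and 7 fell. NAP1L1, a carrier of H2A and H2B, was lower by 0.94 on the log2 scale. SSRP1, of the FACT complex, was at 0.07 with no call. Of 36 S-phase genes 13 rose and 18 fell (median -0.10): MCM5, a subunit of the replicative helicase, rose by 0.92, MCM4 and MCM7 by 0.08 and 0.10, while PCNA, the replication clamp, fell by 0.15 and RRM2, a subunit of ribonucleotide reductase, fell by 0.78. Of 20 mitosis genes 3 rose and 16 fell (median -0.47), and with the GC content and length offsets 2 rose and 13 fell (median -0.18). Cell cycle phase was not measured in these data.

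**Figure D4:**
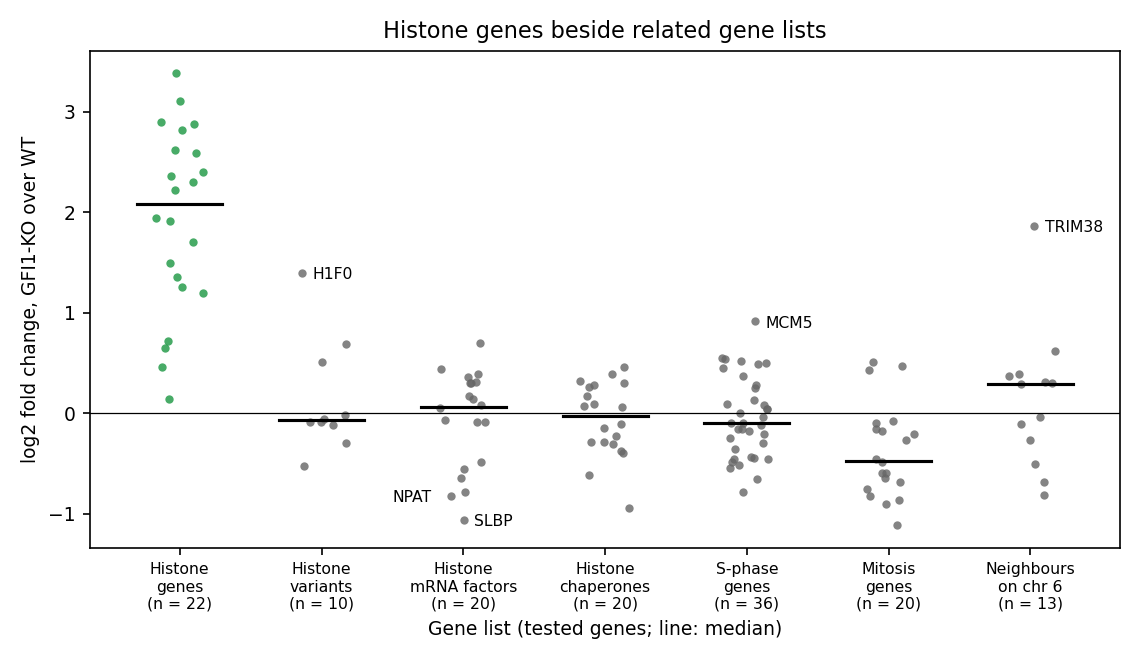
Log2 fold change of GFI1-KO over WT (y axis) for the tested genes of 7 lists (x axis), with 1 point per gene and a line at the median: the histone genes, variants, mRNA factors, chaperones, S-phase genes, mitosis genes and the protein-coding neighbours on chromosome 6. The histone median is 2.09 and the medians of the other lists lie between -0.47 and 0.29.

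Fold changes in this comparison went with base composition. Across 17415 genes the log2 fold change correlated with GC content (Spearman's rho 0.59 across genes, which are not independent replicates), and less with length (rho -0.17). The tested histone genes had a GC content of 43.1 to 61.1%, with a median of 50.8%, against 49.1% for all tested genes. Offsets for GC content and length brought the first correlation to 0.00025. With them, 19 of the 22 histone genes rose, against 32.6% of all genes tested, and their median was 1.89. These 22 include the 8 genes that passed the filter through the GFI1-KO libraries alone, so both values are a description. Of the 14 genes that passed it in all 6 libraries, 11 rose with the offsets, and their median was 1.2. HIST1H1C then had a log2 fold change of 2.83, HIST1H2BK 2.18 and HIST1H2AC 2.77. HIST1H4I and HIST3H2A went from 1.36 and 1.2 to 0.72 and 0.66. HIST2H2AC went from 0.46 to -0.26 and HIST4H4 from 0.15 to -0.02, neither passing the test. HIST1H2BN passed after the offsets (1.08, adjusted p = 0.00665) and HIST1H3H did not (0.38, adjusted p = 0.256). Of the S-phase genes 9 were then higher and 21 lower, and MCM7 was at -0.25.

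**Figure D5:**
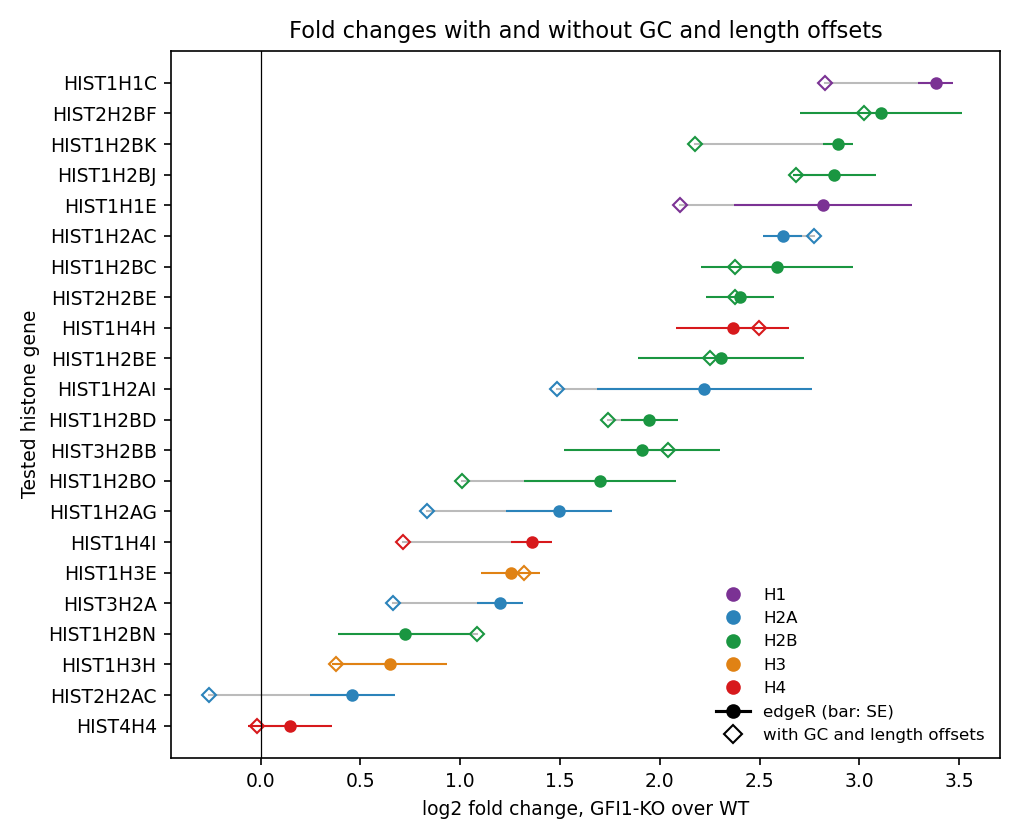
Log2 fold change of GFI1-KO over WT (x axis) of the 22 tested histone genes (y axis), from edgeR (filled circles, bars show the SE) and with offsets for GC content and length (open diamonds), coloured by histone type. With the offsets 20 genes stay above 0, while HIST2H2AC and HIST4H4 lie at -0.26 and -0.02.

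Markers of leukocytes, fibroblasts and endothelial cells were summed as a check on the samples, since the cultures should hold tumour cells alone. Epithelial markers, which tumour cells of epithelial origin can express themselves, were summed beside them. For comparison, 36.5% of all tested genes rose and 35.9% fell. In the leukocyte list 2 genes were tested, 0 rose and 1, HLA-DRA, fell (-3.27 on the log2 scale). It summed to 6.75 to 6.99 CPM in WT and 4.0 to 4.26 in GFI1-KO, with CD3E at 0 in every library and PTPRC at 0 in GFI1-KO. In the fibroblast list 1 of 4 tested rose, COL3A1 (5.75), and 3 fell, PDGFRB among them (-3.24). It summed to 191 to 196 and 133 to 138, mostly from COL1A2, with DCN at 0 in every library. In the epithelial list 1 of 6 tested rose, KRT8 (0.45), and 3 fell, EPCAM (-2.23) and CDH1 (-2.31) among them, while with the GC content and length offsets 0 rose and 5 fell. It summed to 255 to 263 and 283 to 307. In the endothelial list 2 of 4 tested rose and 1 fell, and it summed to 30.9 to 33.5 and 30.6 to 32.2. The part of these genes in the histone counts was not tested.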

How the data were processed

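RNA-Seq counts were analysed for 3 WT and 3 GFI1-KO libraries of H1155 cells. Per the paper's methods, the authors aligned reads of poly-T-selected RNA to GRCh38/hg38 (Hisat2) and assigned them to genes with featureCounts. The submitters' processing notes list Bowtie2 and HTSeq instead. The gene annotation, strand setting and handling of multi-mapped reads are not given in the sources used here. The authors deposited raw counts per gene, without normalization.

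Members, gene lists and tests were chosen with earlier results of these data known. Counts were tested with edgeR 4.0.16 in R 4.3.3 (TMM, filterByExpr, quasi-likelihood F test, Benjamini-Hochberg adjustment over all tested genes, threshold 0.05), after a run on simulated data. In that run, with 200 genes changed, 9.69% of the calls were unchanged genes, above the threshold of 0.05. It called 81% of the genes changed by 1 on the log2 scale and 96% of those changed by 2. Normalized counts use TMM library sizes, sums are CPM of deposited totals, and FPKM used the deposited gene lengths. The SE was obtained from the log2 fold change and its F statistic. Fold changes at few counts depend on the prior count. Alternatives were DESeq2 1.42.0, limma-voom (limma 3.58.1), other normalizations and filters, a replicate block, spline offsets for GC content and length, each library left out, and genes sharing over 50% of 50-base words left out. With 3 libraries against 3, an exact permutation test of a single gene cannot go below p = 0.1.

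Stop codons and exons came from GENCODE release 44 on GRCh38, the build of the files (66 of 71 histone genes matched by identifier, the rest through RefSeq synonyms), and promoters from RefSeq (by current symbol, with the start nearest the coding start where a gene had several). Named were the 20 histone genes highest in mean normalized count, the 5 with the largest significant change in each direction, every tested H1 gene, those with polyadenylated forms, at most 4 genes of each other list by mean count, and GFI1. Other genes were named after their values were seen.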

Additional observations from a re-analysis of the deposited data

How the results depend on the processing

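The number of histone genes that rose was 18 with DESeq2 and with scaling to library size alone, and 19 with limma-voom, DESeq2 size factors, no filter, the replicate block and GC content and length offsets. It was 11 of 13 tested when at least 10 counts were required in every library, since fewer genes were tested, and 18 to 20 when each library was left out. None was called lower in any of these fits, and 18 were called higher in every fit that tested them. The median log2 fold change, 2.09, was 1.37 without a filter (47 genes, many at a few counts), 1.49 with at least 10 counts, 1.89 with GC content and length offsets, 1.89 with these offsets and the block, 1.91 without genes sharing over 50% of words, and 1.94 to 2.19 when each library was left out. The ratio of the sums, 4.45, was 3.91 without genes sharing over 50% of words and 4.37 to 4.52 when each library was left out. After seeing the data, it was also computed without HIST1H1C and HIST1H2BK (3.16) and on TMM library sizes (4.51); it was not run with GC offsets, which act on single genes.

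Signs turned with GC content and length offsets, without and with the block, for HIST2H2AC (-0.26 and -0.27), HIST4H4 (-0.0185 and -0.0240) and GFI1 (-0.0163 and -0.0111). The call for GFI1 was also lost with DESeq2 and without WT replicate 2, WT replicate 3 or GFI1-KO replicate 2. HIST2H2AC passed without GFI1-KO replicate 1 (0.57, adjusted p = 0.0365) and without replicate 2 (0.57, 0.0360). The cause was not tested.

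Deviations of same-numbered libraries correlated at -0.0036, 0.017 and 0.024, so the numbers do not pair the libraries. With the replicate block, 19 histone genes rose with a median of 2.09; HIST1H3H was lost (adjusted p = 0.0639) and HIST1H2BN gained (0.0492). Depth limits the 49 untested genes.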
